A study of Sus scrofa with 16 samples.

Results

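miR-101-3p, a microRNA that the literature links to cyclo-oxygenase 2 at implantation, was measured in the endometrium of 15 pregnant sows. Its reads were all reads of 20 to 26 nt whose first 20 nt were those of mature miR-101-3p, together with the reads that began 1 nt earlier or 1 nt later. They comprised 850 distinct sequences and 680002 reads, 0.736% of the 92411446 reads of 18 to 26 nt. For comparison, the 18 to 26 nt reads fell into 3610231 groups that share their first 18 nt, of which 26704 had at least 30 reads. All 15 sows gave miR-101-3p reads, from 19692 to 101739 per sow.

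The tissue was endometrium, the lining of the uterus, of adult sows on day 10 of pregnancy, collected after the uterus had been flushed. From insemination on, 4 control sows received the ethanol carrier alone, 3 sows received oral oestradiol at 0.05 µg per kg body weight per day, 4 received 10 and 4 received 1000. All animals were inseminated and pregnant, and the labels name no breed, allele or other agent. Tissue of sow 7 at 0.05 µg/kg/day was extracted 2 times, and its libraries were summed to 1 replicate, so that 16 libraries stand for 15 animals.

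MicroRNAs are short RNAs that load into Argonaute proteins and lower the stability and translation of messenger RNAs that pair with the seed, the stretch from nucleotide 2 to nucleotide 8. A mature form whose 5′ end is shifted carries another seed, while changes at the 3′ end leave the seed as it is. Cyclo-oxygenase 2, encoded by PTGS2, makes prostaglandin precursors that the uterus needs around implantation, and work in the mouse uterus has described miR-101 and miR-199a as regulators of it. In the pig the conceptuses are still free in the uterine lumen at this stage, and they signal their presence to the mother through oestrogens before they attach. In whole endometrium a lower level of a miRNA can reflect fewer cells of a type or less RNA per cell, and these cannot be told apart.

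The following reads, copied from the libraries, led each start form and show how the start moves the seed, which is in capitals (5′ to 3′, written with T for U).
Main start, leading read: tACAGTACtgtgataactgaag
Main start, second read: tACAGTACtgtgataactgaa
Main start, shorter read: tACAGTACtgtgataactga
Start 1 nt earlier, leading read: gTACAGTActgtgataactga
Start 1 nt earlier, second read: gTACAGTActgtgataactgaa
Start 1 nt later, leading read: aCAGTACTgtgataactgaa
The main start carries the seed ACAGTAC, the earlier start TACAGTA and the later start CAGTACT. No miRNA sequence table was used here. The miRNA was identified by its known seed and by the most abundant read that carries it, and the other bases were not matched to a reference. Of the 507999 reads of 20 to 26 nt with the main seed, 96.9% had the 20 nt of the main start, so that 1 sequence accounted for nearly all of them. Where reads began 1 nt earlier, the added base was G in 99.7%.

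Pig has a pair of genes for this miRNA in the RefSeq annotation of Sscrofa11.1. MIR101-1 lies within the span of RCL1, an RNA processing factor gene, and MIR101-2 within the span of JAK1, a cytokine receptor kinase gene. The reads were not assigned to 1 or the other gene. The opposite strand of the hairpin, miR-101-5p, was counted by 1 seed, in capitals below, and reads of this form were nearly absent. A 5p strand with another seed from either gene would not be among them. Its leading group, cAGTTATCacagtgctgatg, had 18 reads in 10 of 15 sows with at most 5 in any sow, or 2.65 reads per 100000 reads of the 3p strand. The counts of this group were too low for a comparison of doses, for which at least 20 reads per sow had been required.

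Depth ran from 4497096 to 14945018 reads per library, and 46.7 to 78.4% of a sow's reads were 18 to 26 nt long. The libraries differ in length profile within the dose groups. In class A (sows 1, 2, 5, 8, 9 and 12) fewer than 8% of reads had 17 to 19 nt. Among the remaining sows, long reads (at least 40 nt) made up under 5% in class B (sows 3, 4, 7, 10, 11 and 15) and at least 5% in class C (sows 6, 13 and 14). Control and 10 µg/kg/day had no sow in class C. The labelled tissue was checked against miRNA families known from single cell types, as the summed mean level in control in reads per 1000000 reads of 18 to 26 nt (RPM). Families of stroma and smooth muscle stood at 67315 RPM, families of simple epithelium (the miR-200 and miR-141 seeds) at 20341, of endothelium at 5582 and of squamous epithelium at 1512. Red cell families stood at 1429 RPM, those of skeletal and cardiac muscle at 449, those of leukocytes at 356 and the liver family miR-122 at 18.3. The families listed for brain summed to 1809 RPM, nearly all of it miR-9, with a mean of 1807 RPM in control.

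miR-101-3p was an abundant miRNA of the endometrium. It ranged from 4518 to 11817 RPM over the sows, and no dose group lay apart from control. In the 4 control sows it stood at 9031, 10117, 8895 and 4518 RPM. Sows 1 to 3 lay close together and sow 4 was the lowest of all 15 sows. The control mean was 8140 ± 2476 RPM (SD, n = 4), which placed miR-101-3p at rank 23 among the read groups, although the sum over its 3 start forms was set against single groups of the other miRNAs. Next above it was the miR-199-3p group, aCAGTAGTctgcacattggtt, at 8378 ± 2015 RPM (SD, n = 4), and next below was cCCAGTGTttagactatctgttc at 6336 ± 1757 RPM (SD, n = 4). The differences to both neighbours are smaller than the spread between control sows.

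At 0.05 µg/kg/day the 3 sows stood at 5848, 6287 and 6163 RPM. They lay close together and inside the control range, above control sow 4 and below the other control sows. The 2 extractions of sow 7 gave 6236 and 6116 RPM. At 10 µg/kg/day the levels were 10064, 11817, 8688 and 5510 RPM, with sow 9 the highest of all 15 sows and sow 11 below every sow at 0.05. At 1000 µg/kg/day they were 6928, 7413, 6060 and 5983 RPM, again inside the control range. Group means were 6099 ± 226 RPM at 0.05 (SD, n = 3), 9020 ± 2667 at 10 (SD, n = 4) and 6596 ± 693 at 1000 (SD, n = 4), in the order 10, control, 1000, 0.05. Each pair of neighbouring groups in this order overlapped.

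**Figure D1:**
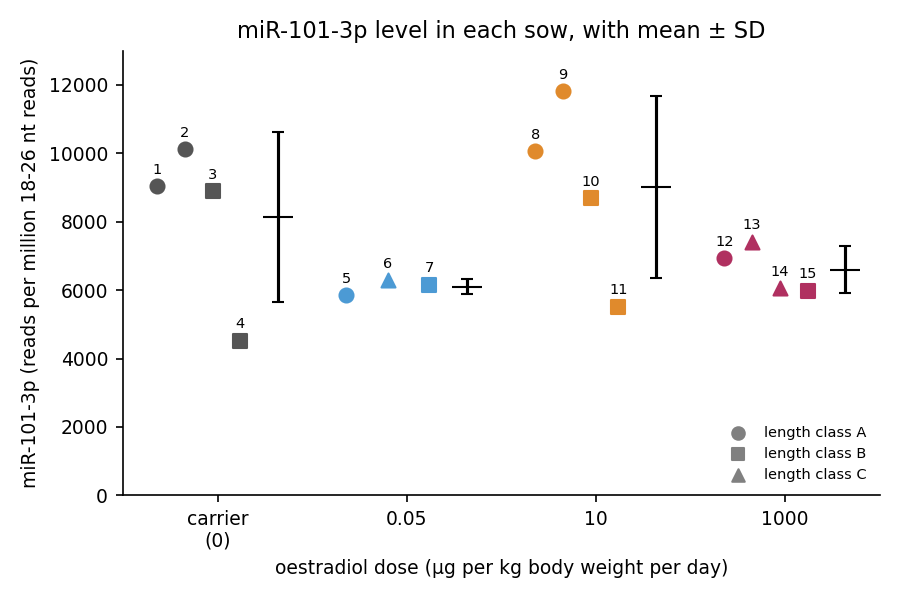
miR-101-3p level in each sow (vertical axis, reads per 1000000 reads of 18 to 26 nt) by oestradiol dose (horizontal axis, µg per kg body weight per day), with black bars for the group mean ± SD and numbers for the sows. Control and 10 µg/kg/day are spread from 4518 to 10117 and from 5510 to 11817, while the sows at 0.05 and 1000 µg/kg/day lie between 5848 and 7413.

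No dose changed miR-101-3p beyond the spread between sows. The following log2 differences come from edgeR's quasi-likelihood test with Benjamini-Hochberg adjustment over 11124 tested read groups and are scaled by the trimmed mean of M-values, so that they need not equal the ratio of mean RPM. At 0.05 µg/kg/day the difference from control was -0.49 (SE 0.35, 95% CI -1.22 to 0.24, adjusted p = 0.9997 by edgeR). At 10 µg/kg/day it was 0.27 (SE 0.32, 95% CI -0.40 to 0.94, adjusted p = 0.99995 by edgeR). At 1000 µg/kg/day it was -0.33 (SE 0.32, 95% CI -0.999 to 0.34, adjusted p = 0.9999 by edgeR). The intervals span from 1.22 below to 0.94 above control on the log2 scale, so a difference of up to that size is compatible with these sows. Without control sow 4 the difference at 10 µg/kg/day was 0.037 and without sow 9 it was -0.040, so its direction rests on sow 9. Without control sow 4 the difference at 0.05 µg/kg/day was -0.71.

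The largest difference between doses was that of 10 over 0.05 µg/kg/day, at 0.76 (SE 0.35, 95% CI 0.03 to 1.496). Its unadjusted p was 0.0423 and its adjusted p 0.9996 by edgeR, and it did not pass. The levels of these groups overlapped, because sow 11 at 10 µg/kg/day lay below all 3 sows at 0.05. Without sow 9 the difference was 0.45, and without sow 11 it was 0.99. The level at 1000 was lower than at 10 µg/kg/day by a log2 difference of -0.60 (SE 0.32, 95% CI -1.27 to 0.068, unadjusted p = 0.0758, adjusted p = 0.988 by edgeR). It was -0.29 without sow 9 and -0.84 without sow 11. Between 1000 and 0.05 µg/kg/day the difference was 0.16 (SE 0.35, 95% CI -0.56 to 0.88, adjusted p = 0.9997 by edgeR), 0.058 without sow 13 and 0.25 without sow 15. A test of the 3 doses together gave an unadjusted p of 0.138 by edgeR, with 0.373 without sow 9 and 0.0119 without sow 11 (adjusted p = 0.932). The trend over dose rank was -0.03 per step (unadjusted p = 0.808 by edgeR).

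**Figure D2:**
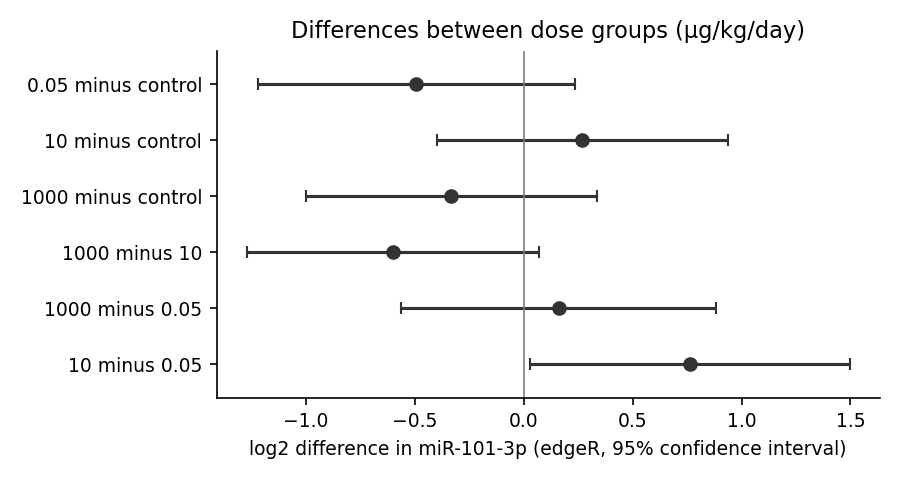
Log2 differences in miR-101-3p between dose groups (horizontal axis, edgeR estimate with its 95% confidence interval), with 1 line for each pair of groups. Of the 6 intervals, that of 10 minus 0.05 µg/kg/day, from 0.03 to 1.496, lies to 1 side of 0, and after adjustment it did not pass.

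These results stand against a background in which edgeR called no read group. The share of the 11124 tested groups called was 0% for 0.05 minus control, 0% for 10 minus control, 0% for 1000 minus control, 0% for 1000 minus 10, 0% for 1000 minus 0.05, 0% for 10 minus 0.05, 0% for the 3 doses together and 0% for the trend. At an unadjusted p under 0.05 edgeR had 264 groups at 0.05, 376 at 10 and 501 at 1000 µg/kg/day against control. It had 542 for 1000 minus 10, 213 for 1000 minus 0.05, 275 for 10 minus 0.05, 338 for the 3 doses together and 438 for the trend. DESeq2 on the same counts also called 0 groups in each, with 246, 322 and 455 at an unadjusted p under 0.05 for the 3 doses against control. The absence of a call for miR-101-3p is thus shared with all tested read groups.

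The level also differed with length class. In class A the control sows 1 and 2 averaged 9574 RPM, sow 5 at 0.05 µg/kg/day had 5848, sows 8 and 9 at 10 averaged 10940, and sow 12 at 1000 had 6928. In class B the control sows 3 and 4 averaged 6707 RPM, sow 7 at 0.05 had 6163, sows 10 and 11 at 10 averaged 7099 and sow 15 at 1000 had 5983. Within both classes the mean at 10 µg/kg/day stood highest and that of control next, but 0.05 and 1000 µg/kg/day had 1 sow each. The single sows of control and 10 µg/kg/day overlapped in both classes. In class A control had 9031 and 10117 RPM and 10 µg/kg/day had 10064 and 11817. In class B control had 8895 and 4518 RPM and 10 µg/kg/day had 8688 and 5510. Class C held 6287 RPM in sow 6 at 0.05, and 7413 and 6060 RPM in sows 13 and 14 at 1000, with no control sow. With class as a term in the edgeR fit the differences from control were -0.48 at 0.05, 0.24 at 10 and -0.39 at 1000 µg/kg/day. None of them passed. Class means were 8967 ± 2215 RPM in A (SD, n = 6), 6626 ± 1773 in B (SD, n = 6) and 6587 ± 724 in C (SD, n = 3). The part of library length profile in the level was not tested.

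The spread of miR-101-3p between sows was near the middle of that of other abundant read groups. Over the 15 sows its SD was 27.7% of its mean, against a median of 25.04% over the 598 groups of at least 100 RPM, of which 38.8% had a larger one. Within groups it was 30.4% in control and 29.6% at 10 µg/kg/day, but 3.71% at 0.05 and 10.5% at 1000. The medians of those 598 groups were 26.2% (control), 16.4% (0.05), 26.4% (10) and 22.6% (1000). With 3 or 4 sows per group these SDs are themselves imprecise, and their difference was not tested.

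Many miR-101-3p reads did not begin at the main start and so carried another seed. The main start held 492277 reads (72.4%, 502 distinct sequences), the start 1 nt earlier 178377 (26.2%, 289 sequences) and the start 1 nt later 9348 (1.37%, 59 sequences). The earlier start took 26.7, 24.9, 24.5 and 30.5% of the reads in control sows 1 to 4. Sow 4, which had the lowest level, had the highest share of all sows. At 0.05 µg/kg/day the shares were 26.3, 29.1 and 26.6%, at 10 they were 23.5, 23.5, 26.2 and 26.8%, and at 1000 they were 28.1, 27.7, 28.4 and 27.2%. Each dose overlapped control. The sows at 1000 lay closest together, with a mean of 27.9 ± 0.534% (SD, n = 4) against 26.6 ± 2.73% in control (SD, n = 4), 27.3 ± 1.57% at 0.05 (SD, n = 3) and 25.003 ± 1.74% at 10 (SD, n = 4). The differences from control, in percentage points, were 0.696 at 0.05 (exact two-sided permutation p = 0.686), -1.63 at 10 (p = 0.429, exact permutation) and 1.22 at 1000 µg/kg/day (p = 0.400, exact permutation). Adjusted over the 18 tests of shares, these were 0.971, 0.964 and 0.964. The smallest p possible is 0.0286 with 4 sows against 4 and 0.0571 with 3 against 4. Hence no share at 0.05 µg/kg/day could pass, whatever its values. At 10 and 1000 none could pass after adjustment over 18 tests unless many did.

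The extractions of sow 7 had earlier-start shares of 24.5% and 27.9%, a gap of 3.44 percentage points between libraries of 1 animal.

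The later start remained a minor form in every sow, from 1.11 to 1.56%. Its means were 1.31 ± 0.185% in control (SD, n = 4), 1.30 ± 0.0342% at 0.05 (SD, n = 3), 1.41 ± 0.0589% at 10 (SD, n = 4) and 1.43 ± 0.0780% at 1000 µg/kg/day (SD, n = 4), with a lowest exact permutation p of 0.314. As levels, the forms moved together. For 10 minus 0.05 µg/kg/day the log2 difference by edgeR was 0.60 for the earlier start, 0.82 for the main start and 0.88 for the later start, and no form passed in any pair of groups.

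The earlier seed belongs to miR-101 nearly alone in this tissue, and the later seed does not. Of the 193152 reads of 18 to 26 nt with TACAGTA as their nucleotides 2 to 8, 97.4% were miR-101 of the earlier start, and 99.4% with reads that differ from it by 1 base. Of the 522371 reads with ACAGTAC, 97.7% were the main start, and 99.9% with such variants. Of the 40975 reads with CAGTACT only 34.3% were miR-101. The most abundant group with this later seed, gcagtacttccgggaacggtgcacca, made up 46.4% and is no miR-101 read.

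Counted from the start that carries the known seed, an earlier start of this size was uncommon among the miRNA families compared. In 27 seed families of at least 100 RPM, the share was computed over reads of 18 to 26 nt matched on 18 nt, which gave 26.4% for miR-101-3p. The value was 38.1% for miR-214, 26.01% for miR-199-3p and 4.30% for miR-126-3p. The median of the other 26 families was 0.0656%, and only miR-214 and miR-199-3p of them exceeded 5%. Over the 15 sows the earlier-start shares of miR-101-3p and miR-199-3p had r = -0.483 (permutation p = 0.0668) and rho = -0.400 (permutation p = 0.138), adjusted 0.0891 and 0.185 over 4 relations. Without the 2 sows farthest from the median r was -0.324, within class A it was 0.162 and within class B -0.489.

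**Figure D3:**
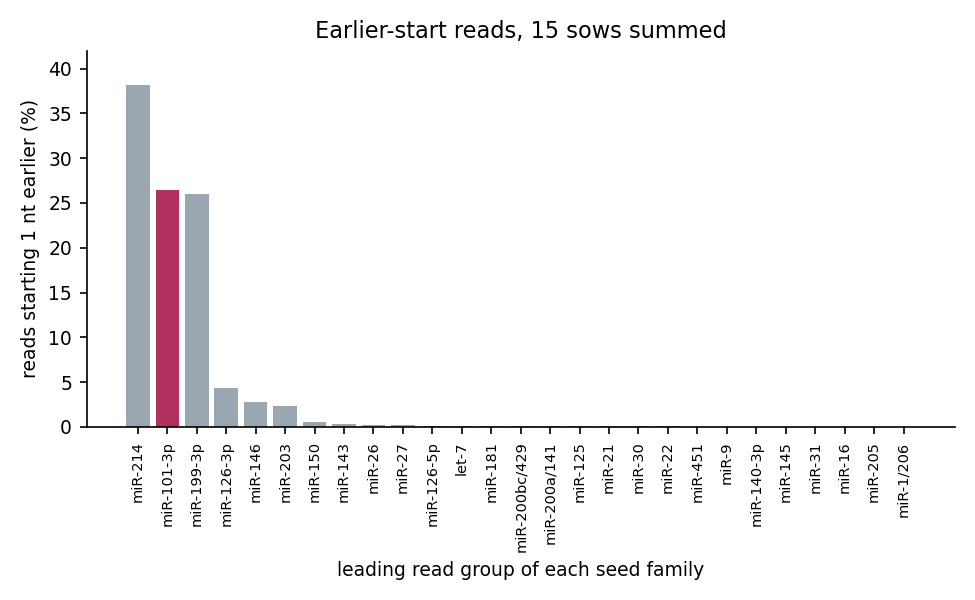
Share of reads that start 1 nt earlier than the start with the known seed (vertical axis, percent, 15 sows summed). The horizontal axis holds the leading read group of 27 seed families, with miR-101-3p in red. Bars for miR-214, miR-101-3p and miR-199-3p stand at 38.1, 26.4 and 26.01%, and the median of the families other than miR-101-3p is 0.0656%. Reads that start 1 nt later, which led in miR-140-3p and miR-203, are not shown.

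The 3′ ends of miR-101-3p varied as well. Positions are counted from 1 at the first base of the main start. The leading read of the main start, which ends in G at position 22, held 24.0 ± 1.74% of main-start reads (SD, n = 15). Reads that end at position 21 with A held 22.3 ± 1.63%, and reads that end at position 20 held 18.6 ± 1.29% (SD, n = 15). Next came tACAGTACtgtgataactgaaa with 9.65% and tACAGTACtgtgataactgaat with 8.62%, which differ from the leading read in the last base. The longer tACAGTACtgtgataactgaagt held 4.19%. The 27 families were also compared within the reads of the start with the known seed (18 to 26 nt matched on 18 nt). There the most abundant read of miR-101-3p held 23.1%, the second lowest value after miR-125 with 23.01%, against a median of 48.9% in the other families.

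Of the end variants tested (position 20 as the end, and G, A or T at position 22), none passed against control at 10 or 1000 µg/kg/day. With so few sows none could pass at 0.05, and at the other doses only if many did. Doses were not tested against each other. G at position 22 made up 31.8 ± 3.18% of main-start reads in control (SD, n = 4), 32.7 ± 1.08% at 0.05 (SD, n = 3), 31.98 ± 1.93% at 10 (SD, n = 4) and 31.5 ± 2.36% at 1000 µg/kg/day (SD, n = 4). A at position 22 made up 10.17, 10.18, 9.95 and 10.3% in the same order. Reads that end at position 20 made up 17.98, 18.7, 18.6 and 19.1%. T at position 22 had the smallest p of the 18 tests. It stood at 10.3, 9.56, 9.99 and 9.29% in the control sows and at 10.1, 6.65, 7.96 and 8.91% in the sows at 1000 µg/kg/day, so that 3 of 4 treated sows lay below all control sows and sow 12 lay among them. The means were 9.79 ± 0.445% and 8.40 ± 1.46% (SD, n = 4 and 4), with a difference of -1.38 percentage points (exact two-sided permutation p = 0.143, adjusted p = 0.964). Low values were not confined to the highest dose. At 0.05, sows 5 and 6 (8.89 and 8.47%) were likewise below every control sow, while sow 7 (10.0%) was among them. At 10, sows 10 and 11 (9.17 and 8.80%) were below every control sow, but sows 8 and 9 (11.3 and 10.9%) were above. The share of T also moved with length class. It was 8.89 to 11.3% in class A, 8.80 to 10.0% in class B and 6.65 to 8.47% in class C, which holds sows 13 and 14 at 1000 and no control sow. The part of length class in the difference between 1000 and control was not tested.

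The start and the end of a read were linked. Of the main-start reads that had A at position 21 and went on, 61.0 ± 2.63% had G at position 22, 19.4 ± 1.23% had A and 17.8 ± 2.00% had T (SD, n = 15). Of the earlier-start reads only 3.18 ± 0.529% had G there, while 69.7 ± 2.09% had A and 23.9 ± 1.67% had T (SD, n = 15). The ranges over sows did not meet, with G at 57.8 to 65.1% for the main start and 2.17 to 4.13% for the earlier start. These shares rest on 6698 to 37978 main-start reads and 506 to 2604 earlier-start reads per sow. The later start resembled the main start, with G in 57.6 ± 3.77% (SD, n = 15). The pattern was seen in the reads before it was summarised and is given as a description with no test. Whether a base at position 22 is copied from the gene or added afterwards was not determined here, since no hairpin sequence was used.

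Earlier-start reads also ended sooner. Counted from the main start, 41.9 ± 1.24% of them ended at position 20, 39.7 ± 1.05% at 21 and 10.9 ± 0.814% at 22. Of main-start reads 48.3 ± 1.58% ended at position 22 and 8.89 ± 0.946% at 23 (SD, n = 15). The mean lengths were thus nearly equal, 21.6 nt for the earlier start and 21.5 nt for the main start. The window of 20 to 26 nt sets the first end that can be seen, position 19 for the earlier start, 20 for the main start and 21 for the later start.

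**Figure D4:**
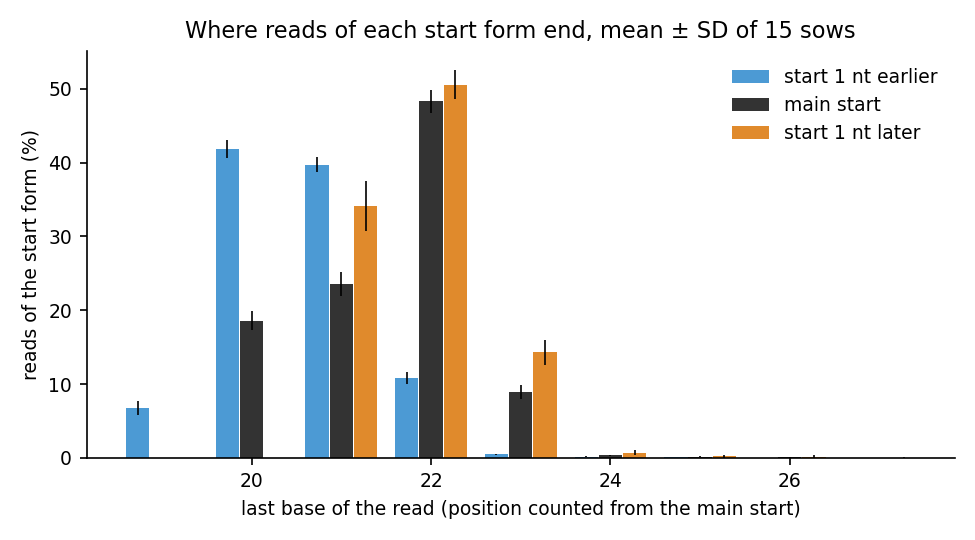
Share of the reads of each start form (vertical axis, percent, mean ± SD of 15 sows) by the position of their last base, counted from the main start (horizontal axis). Earlier-start reads end mostly at positions 20 and 21 (41.9 and 39.7%), and main-start reads mostly at position 22 (48.3%).

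Sows with more miR-101-3p had a smaller share of its earlier start. Across the 15 sows the correlation of log2 RPM with this share was r = -0.821 (permutation p = 0.00026, adjusted 0.00104 over 4 relations) and rho = -0.682 (permutation p = 0.00672, adjusted 0.0134). Leaving out the 2 sows farthest from the median level gave r = -0.684. Within class A r was -0.755 and within class B -0.864, over 6 sows each, and class C had too few sows. The share of main-start reads with G at position 22 was also smaller where the level was higher, with r = -0.766 (permutation p = 0.00104, adjusted 0.00208) and rho = -0.836 (permutation p = 0.00028, adjusted 0.00112). That r was -0.643 without the 2 farthest sows, -0.594 in class A and -0.923 in class B. The share of reads that end at position 20 had r = -0.0877 (permutation p = 0.758) and rho = -0.171 (permutation p = 0.539), with r = -0.207 without the 2 farthest sows, -0.751 in class A and 0.740 in class B. The relations were picked with the values in view, and both measures come from the same reads of a library. The adjustment covers the 4 relations and not their choice. The earlier-start share is divided by the counted reads that also give the level, and the main start held 72.4% of them. Main-start reads that vary alone would therefore already give a negative r. The permutations, made over all doses together, do not take this into account. The extractions of sow 7 differed by 3.44 percentage points in the share at nearly the same level.

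**Figure D5:**
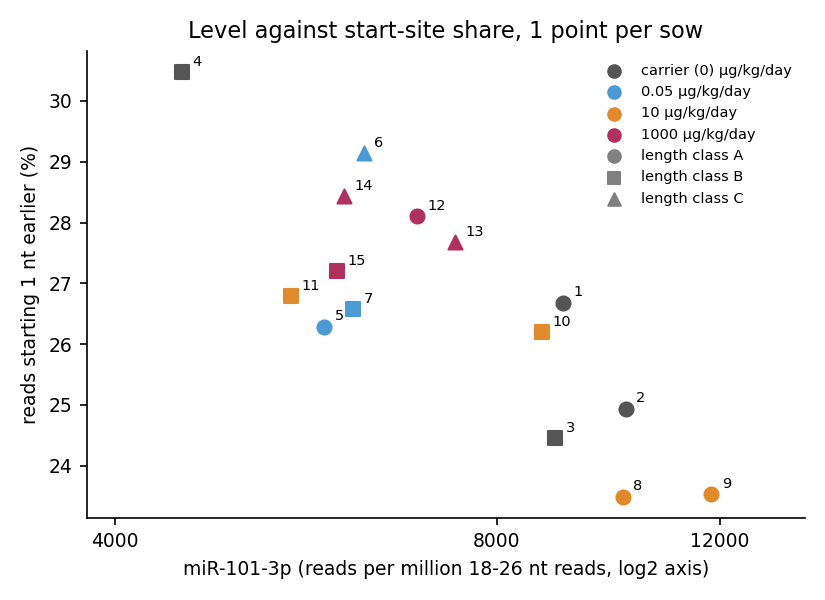
Share of miR-101-3p reads that start 1 nt earlier (vertical axis, percent) against the level (horizontal axis, reads per 1000000 reads of 18 to 26 nt on a log2 axis), with 1 point per sow, coloured by dose and shaped by length class. Sow 4 with 4518 RPM has 30.5%, and sows 8 and 9 with 10064 and 11817 RPM have 23.5% each.

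Reads that differ from the 20 nt of the main start by 1 base fell outside the counted reads. They amounted to 4.17 ± 0.135% of the main-start reads and these variants together (SD, n = 15), from 3.97 to 4.35%. The shares of single substitutions are given out of the same total. Substitutions are written with the base of the main start, its position and the base read. The most frequent were A20G with 0.522%, A4G with 0.319%, A13G with 0.299%, A20T with 0.289%, T9C with 0.234% and A2G with 0.213%. A4G and A2G lie in the seed. All A-to-G changes summed to 1.80% over 7 positions and all T-to-C changes to 0.997% over 6. Sequencing errors and changes in the RNA cannot be told apart in these counts.

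The read groups whose level followed miR-101-3p most closely over the 15 sows were forms of miR-21, the most abundant miRNA of the tissue. By Pearson's r of log2 levels (RPM plus 1) among 598 groups of at least 100 RPM, the 5 highest were tAGCCTATcagactgatgttgac with 0.921, tAGCTTATcggactgatgttgac with 0.917, aGCTTATCagactgatgttgac with 0.911, gCTTATCAgactgatgttgac with 0.905 and tGGCTTATcagactgatgttgac with 0.884. By sequence these are 1-base variants and later starts of the leading miR-21 read, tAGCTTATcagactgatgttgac, so they count as 1 RNA. The median r over the 598 groups was -0.240 and their 5th to 95th percentiles ran from -0.850 to 0.651. These values share library and depth and carry no test.

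As a ratio to miR-21, miR-101-3p stood at 68.5 ± 10.23 reads per 1000 reads of the miR-21 group in control (SD, n = 4), 64.3 ± 2.98 at 0.05 (SD, n = 3), 69.3 ± 6.95 at 10 (SD, n = 4) and 69.3 ± 16.3 at 1000 µg/kg/day (SD, n = 4). miR-21 was taken as the denominator after its forms had been found to follow miR-101-3p in these sows, so the spread of the ratio is no separate result. Within groups the SD of the ratio was 14.9% of its mean in control, 4.64% at 0.05, 10.02% at 10 and 23.5% at 1000, larger than that of the level at 0.05 and at 1000. miR-21 itself had log2 differences from control of -0.39, 0.26 and -0.31 at 0.05, 10 and 1000 µg/kg/day by edgeR, close to those of miR-101-3p, and it did not pass either. These comparisons share the control sows.

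Of the other miRNA families reported to act on PTGS2, 6 were measured as the leading group of their seed (miR-143, miR-26, miR-199-3p, miR-16, miR-146 and miR-144), and edgeR called 0 of 6 at each dose. Their log2 difference lay above 0 in 3 of 6 at 0.05, in 5 of 6 at 10 and in 4 of 6 at 1000 µg/kg/day, with medians of 0.06, 0.15 and 0.10. Of all 11124 groups 46.9, 51.6 and 47.9% lay above 0, with medians of -0.02, 0.01 and -0.02. miR-143, a miRNA of smooth muscle and stroma, was the most abundant with 55535 ± 12676 RPM in control (SD, n = 4) and 64041 ± 37885 RPM at the highest dose (SD, n = 4). Its sows ran from 43418 to 67784 RPM in control and from 38773 to 119782 RPM at the highest dose. miR-26 had 16219 ± 3032 RPM in control and 17529 ± 2894 at 1000 (SD, n = 4 and 4), and miR-199-3p 8378 ± 2015 and 9128 ± 3067 (SD, n = 4 and 4). All 3 overlapped between the groups.

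A second list held 10 families that studies of implantation name (miR-21, let-7, miR-27, miR-30, miR-125, miR-145, miR-22, miR-140-3p, miR-181 and miR-31). edgeR called 0 of 10 at each dose. Their log2 difference lay above 0 in 6, 9 and 6 of 10 at 0.05, 10 and 1000 µg/kg/day, with medians of 0.05, 0.10 and 0.08. Of all 11124 groups 46.9, 51.6 and 47.9% lay above 0, and 0% were called at each dose. The 10 families were measured in the same sows, so their directions are not separate results. The most abundant were miR-21 with 117881 ± 31974 RPM in control, let-7 with 28190 ± 5692 and miR-27 with 19452 ± 2365 (SD, n = 4). At 1000 µg/kg/day they had 97520 ± 15771, 28463 ± 9009 and 20164 ± 3265 RPM (SD, n = 4). Levels of different miRNAs also depend on how well their ends are ligated in library preparation, which was not measured.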

How the data were processed

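The labels' protocols name TRIzol for the RNA and a NEBNext small RNA kit for the libraries. The deposited files list each distinct read of 17 to 49 nt with its raw count, without normalization. The builds GRCm38, Sscrofa10.2, UMD3.1 and GRCh37.p5 appear per the submitters' processing notes, as does FastQC, with no role given. The adapter step and any aligner are not given in the sources used here. The main start was the most abundant 20 to 26 nt read with the miR-101 seed. RPM is per 1000000 reads of 18 to 26 nt. The planned table of annotated miRNAs could not be formed, so the planned substitute was tested, groups of 18 to 26 nt reads that share 18 nt, with the counted miR-101-3p reads as 1 row.

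Groups with at least 30 reads that passed filterByExpr (11124) were fitted over all 15 sows with edgeR 4.0.16 in R 4.3.3 (glmQLFit with robust estimation, glmQLFTest, TMM factors 0.747 to 1.24, biological coefficient of variation 0.337), with calls at an adjusted p under 0.05. DESeq2 1.42.0 was an alternative. The procedure was tested on simulated counts with that same coefficient for every read group and no length classes, and no result here rests on it. Exact two-sided permutation tests compared the shares of forms and ends, and correlations by 100000 permutations (scipy 1.17.1). Reads carry no molecular identifiers. Per the labels each sow is a separate animal.

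The members, the lists and the length classes were chosen with earlier results of these data known. The named miRNAs are miR-101-3p, its 5p arm and its forms, the 5 groups with the highest Pearson correlation, both neighbours in level, the 3 most abundant families of each list and up to 5 called groups per comparison, of which there were none. miR-9, miR-126-3p, miR-214, miR-125, miR-140-3p and miR-203 were named after their values had been seen. Alternatives covered normalization, test, filter, samples in the fit, read lengths, start forms, matched length, feature table, length class, extraction of sow 7 and leaving out each sow.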

Additional observations from a re-analysis of the deposited data

How the results depend on the processing

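Of 174 alternative values for the level, 3 changed direction and none passed the threshold. The 174 include p-values of the 3 doses together, 12 with every sow kept and 15 with 1 sow left out. These have no direction. Of 174 for the shares, 21 changed direction. With so few sows the shares at 0.05 µg/kg/day could not pass at all, and the others not after adjustment unless many did. Their side of the threshold therefore says nothing about stability. The level stayed between -0.52 and -0.42 at 0.05, 0.15 and 0.30 at 10, and -0.39 and -0.21 at 1000 µg/kg/day against control (log2) over all alternatives that keep every sow. Leaving out 1 sow gave -0.71 to -0.32, -0.040 to 0.52 and -0.56 to -0.16. Between doses it gave -0.84 to -0.29 for 1000 minus 10, 0.058 to 0.25 for 1000 minus 0.05 and 0.45 to 0.99 for 10 minus 0.05. For the trend over dose rank it gave -0.096 to 0.030, with the change of sign without control sow 2 or sow 15. The differences in shares were small and changed sign most often when 1 sow was left out (percentage points). A at position 22 ran from -0.363 to 0.535 at 0.05, -0.556 to 0.0119 at 10 and -0.199 to 0.342 at 1000, and G there from -0.691 to 1.65 at 10 and -1.11 to 1.17 at 1000. T there ran from -0.175 to 0.651 at 10. At 0.05 the end at position 20 ran from -0.0283 to 1.31, the earlier start from -0.208 to 1.98 and the later start from -0.0859 to 0.0628. With reads of 18 to 26 nt matched on 18 nt, A at position 22 at 0.05 was -0.0290 and the later start 0.00253. The cause was not tested. For the 5p strand no alternative gave a value that could be compared. The planned fit of every group of at least 1 read was not run, and a fit of all groups of at least 30 reads without filterByExpr, chosen after seeing the data, took its place. No paired analysis was possible because the groups share no replicate numbers. Depth left 19692 or more miR-101-3p reads in each sow, so the precision of the level is limited by the number of sows, 3 or 4 per group, and that of the 5p strand by its few reads. The mature sequence was not matched to a reference, and the gene of origin and templating of end bases were not analysed here.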
